A study of Mus musculus with 2 samples.

Results

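The Hoxd cluster is a row of 9 homeobox genes on mouse chromosome 2, and its DNA methylation was read in mouse embryonic fibroblasts (MEFs) of wildtype mice (wt) and of mice with the genotype ESR2 -/-, which lack oestrogen receptor β (βerko). Both cell types were of the C57BL/6 strain, received no treatment in the labels, and gave 1 library each, made from a pool of DNA batches, so no spread between replicates exists and no difference was tested. The assay was reduced representation bisulfite sequencing (RRBS), in which the enzyme MspI cuts DNA at CCGG, short fragments are treated with bisulfite, and cytosines that still read as cytosine are counted as methylated. As the paper states, the method does not tell methylated from hydroxymethylated cytosine. The members were all cytosines covered in both libraries between 74500000 and 74612000 of chromosome 2 (build mm9, as all coordinates here), which gave 689 of 826937 covered positions. The interval was chosen by its percent methylation in both libraries, which was known to differ, so its counts and differences are descriptions. The percentages do not show whether Esr2 was deleted or what the cells expressed, so neither label was checked here.

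Hox genes encode transcription factors that give cells their position along the body axis and the limbs. They lie in clusters in the order in which they act, with Hoxd13 at the end that acts in the distal limb and Hoxd1 at the anterior end. Their promoters are rich in CpG sites, which are commonly free of methylation, and Polycomb proteins keep the unused genes silent. In fibroblasts the set of active Hox genes is known to reflect the place in the body from which the cells came.

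The 689 positions lay on 604 of the 2928 CpG sites of the interval (20.6 %), in 41 covered stretches separated by more than 300 bp, and 85 sites were read on both strands. The longest gap between covered positions, of 9249 bp, followed the first Hoxd3 exon. Of the positions, 562 lay within Hoxd gene models. Read depth was listed only for the 81 positions that the deposited tables of differentially methylated positions (DMPs) hold, that is cytosines above 80 % in one library and below 20 % in the other. At the remaining positions the depth is unknown.

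The sequences below are plus-strand reference bases, 5′ to 3′, with CpG sites covered in both libraries in capitals. They show the intron stretch that held the hypomethylated DMPs of Hoxd10, the start and the most covered coding stretch of Hoxd9, the most covered coding stretch of a neighbour that was nearly free of methylation in both (Hoxd8), and stretches with higher methylation (Hoxd12, Hoxd3).
Hoxd12, coding exon, chr2:74513376-74513525: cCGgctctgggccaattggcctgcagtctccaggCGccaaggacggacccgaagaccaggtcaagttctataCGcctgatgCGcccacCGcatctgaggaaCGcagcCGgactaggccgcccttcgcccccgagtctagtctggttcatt
Hoxd10, intron, chr2:74530822-74531028: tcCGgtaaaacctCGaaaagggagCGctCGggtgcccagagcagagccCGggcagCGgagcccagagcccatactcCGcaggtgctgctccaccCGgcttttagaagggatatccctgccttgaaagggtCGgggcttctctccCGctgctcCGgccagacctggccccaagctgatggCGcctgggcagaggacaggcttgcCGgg
Hoxd9, bases before the transcript start, chr2:74535587-74535736: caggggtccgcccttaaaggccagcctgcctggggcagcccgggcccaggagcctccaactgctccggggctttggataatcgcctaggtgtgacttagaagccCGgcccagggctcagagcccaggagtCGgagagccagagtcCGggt
Hoxd9, coding exon, chr2:74536309-74536458: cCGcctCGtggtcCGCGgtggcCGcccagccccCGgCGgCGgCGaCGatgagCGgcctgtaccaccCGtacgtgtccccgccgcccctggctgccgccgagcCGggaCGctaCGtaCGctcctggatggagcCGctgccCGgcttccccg
Hoxd8, coding exon, chr2:74543753-74543902: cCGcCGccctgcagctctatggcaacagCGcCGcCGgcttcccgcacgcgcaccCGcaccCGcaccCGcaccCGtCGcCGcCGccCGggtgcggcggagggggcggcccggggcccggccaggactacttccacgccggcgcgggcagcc
Hoxd3, intron, chr2:74574146-74574384: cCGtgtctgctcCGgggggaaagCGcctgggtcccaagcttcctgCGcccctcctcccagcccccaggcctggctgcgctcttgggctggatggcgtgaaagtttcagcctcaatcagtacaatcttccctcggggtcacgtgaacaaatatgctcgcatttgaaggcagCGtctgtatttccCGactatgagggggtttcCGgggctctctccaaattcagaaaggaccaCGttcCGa
Over these bases, the mean methylation in wt and βerko MEFs was 93.4 % and 1.35 % at the 23 positions of the Hoxd9 coding window, and 92.5 % and 1.65 % at the 3 positions before its start. The Hoxd8 window, about as dense in CpG sites (25 against 24 in the Hoxd9 window), had 2.20 % and 0 % at 13 positions. The other windows were intermediate in at least one library, with 94.5 % and 40.7 % in the Hoxd10 intron, 28.5 % and 66.9 % in Hoxd12, and 11.1 % and 71.4 % in the Hoxd3 intron.

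Over the whole interval the mean was 37.5 % in wt and 27.2 % in βerko MEFs, a difference of -10.3 percentage points, against -1.89 over all covered positions. It was -4.61 with 1 kb bins weighted equally, and the median difference was -1.79 in the interval. The 72 Hoxd9 positions, all lower by at least 20 percentage points and by 90.2 on average, carried much of the mean difference. At 205 of the 689 positions (29.8 %) methylation was lower in βerko MEFs by at least 20 percentage points, and at 118 (17.1 %) it was higher by as much. Over all positions these shares were 10.4 % and 6.81 %. The locus held 75 hypomethylated DMPs (above 80 % in wt and below 20 % in βerko MEFs, 0.728 % of all positions) and 6 hypermethylated DMPs (the opposite, 0.249 %). Of the 157 positions above 80 % in wt, 75 were below 20 % in βerko MEFs and 38 stayed above 80 %. The corresponding share over the genome was 2.24 %. Of the 312 positions below 20 % in wt, 6 were above 80 % in βerko MEFs, where the genomic share was 0.494 %, and 251 stayed below 20 %.

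**Figure D1:**
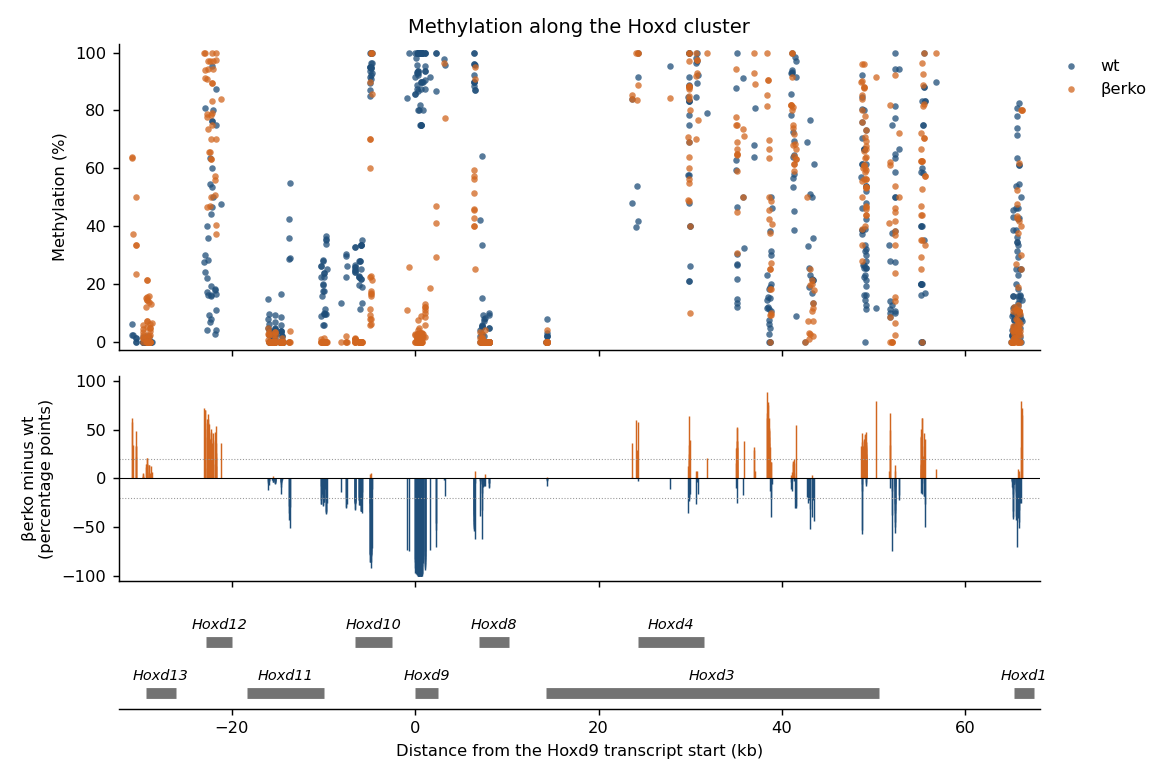
Methylation (%) of the 689 covered positions in wt and βerko MEFs (top, 1 point per position and library) and the difference in percentage points (middle) against the distance from the Hoxd9 transcript start in kb, above the spans of the 9 gene models (bottom). Dotted lines mark 20 percentage points; the differences are close to -100 at Hoxd9, above 0 at Hoxd12, and of both signs in Hoxd3.

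The differences were laid out in blocks along the cluster, whose borders were drawn at uncovered gaps after the values had been seen. Starting at the Hoxd13 end, 2 blocks were higher or equal in βerko MEFs, the next 4, from Hoxd11 to the first Hoxd3 exon, were lower on average, the block of Hoxd4 and the rest of Hoxd3 was mixed, and the Hoxd1 block was lower on average, with 22 of its 66 positions lower and 4 higher. All 75 hypomethylated DMPs lay in 1 of these blocks, of 7218 bp, from the Hoxd10 intron to the end of Hoxd9. As its borders were drawn with the values known, this only describes the layout. Between 74531026 and 74534851 this block held no covered position. All 6 hypermethylated DMPs lay in the block of Hoxd4 and Hoxd3. Runs of at least 5 neighbouring positions that were lower by 20 percentage points or more, with no other position between them and gaps of at most 200 bp, numbered 10 and held 129 positions, and 8 runs of higher positions held 64. No number of such runs over the genome is given to set beside these, so the counts only describe the interval.

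Hoxd9, a trunk and limb gene of the central cluster (74535737 to 74538265), had the largest difference of the 9 genes. Its 72 positions averaged 94.2 % in wt and 4.07 % in βerko MEFs, with wt values from 75 to 100 % and βerko values from 0 to 47.1 %, so the ranges of the libraries did not overlap. Methylation was 100 % at 39 positions in wt, and 0 % at 26 positions in βerko MEFs. Some of the wt values of 100 % rest on only 4 or 5 reads. The difference of -90.2 percentage points ranked 2 from the largest fall among 16466 genes with at least 5 covered positions, of which 3.57 % had a mean lower by 20 percentage points or more and 0.82 % a mean higher by as much. Of the 9 Hoxd genes, Hoxd9 and Hoxd10 were in the first class and Hoxd12 in the second.

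The Hoxd9 difference was similar at most of its covered positions, which lay in the first part of the gene. One run of 63 positions, from 74535691 to 74536553 (863 bp, 69.1 % G and C), covered 56 of its 94 CpG sites and averaged 94.0 % and 1.41 %. It began 46 bp before the transcript start and took in untranslated and coding bases. Coding positions averaged 94.1 % and 2.89 % (n = 48) and untranslated positions 94.5 % and 6.45 % (n = 24). The position nearest to the start, 5 bp before it, had 85.7 % in wt and 2.5 % in βerko MEFs, and position 74536037 had 100 % and 0 %.

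Towards the 3′ end of Hoxd9 the βerko values increased. A run of 8 positions from 74536769 had 95.1 % in wt and 9.16 % in βerko MEFs. Position 74537354 then had 91.7 % and 18.5 %, and the last 3 positions of the gene, up to 74538041, had 86.7 to 100 % in wt and 29.4 to 47.1 % in βerko MEFs. Past the gene, positions 74538938 and 74538956 had 97.9 % and 95.6 % in wt against 96.4 % and 77.4 % in βerko MEFs. No covered position lay between these and the last one of the gene. On the other side, the 2 positions of the gene model Gm14396 between Hoxd10 and Hoxd9 averaged 92.1 % and 18.4 %.

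**Figure D2:**
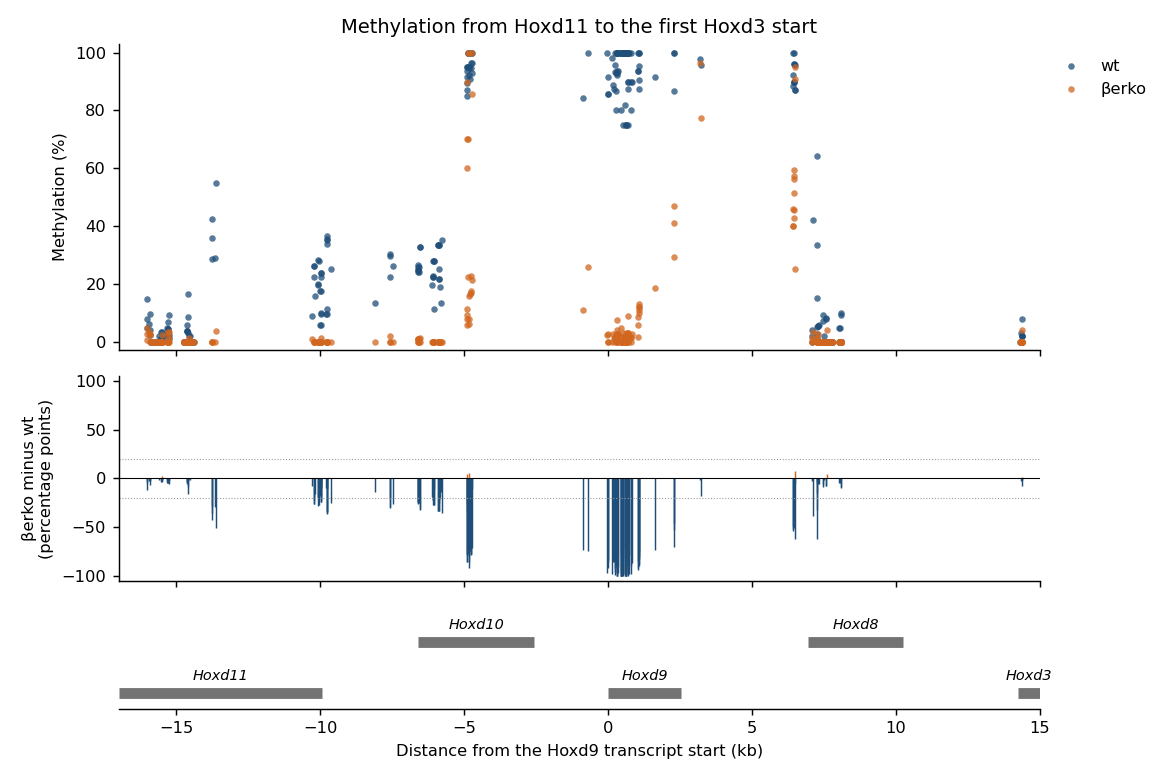
Methylation (%) from Hoxd11 to the first Hoxd3 start in wt and βerko MEFs (top), the difference in percentage points (middle) and gene spans (bottom), against the distance from the Hoxd9 transcript start in kb. In wt the values are near 0 in the covered first part of Hoxd11, up to 54.8 % further into it, about 25 % at the Hoxd10 start and at least 75 % over Hoxd9, whereas βerko values are at most 4.86 % up to the Hoxd10 start and below 20 % over most of Hoxd9.

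The depth behind the Hoxd9 values was unequal. At its 61 hypomethylated DMPs wt had 4 to 53 reads (median 12) and βerko 38 to 84 (median 70), and all 61 were deeper in βerko MEFs. Summed over these DMPs, 810 of 851 wt read counts (95.2 %) and 123 of 4048 βerko read counts (3.04 %) were methylated. A read that spans several DMPs is counted at each of them, so these sums are not numbers of separate reads. The exact 95 % binomial intervals of single DMPs reached down to 39.8 % in wt and up to 28.7 % in βerko MEFs. They were apart at each of the 61, which is no test, since DMPs were selected on the same reads, and at 5742 of the 6016 hypomethylated DMPs of the data. These intervals cover counting error only, and reads copied by PCR are not independent molecules. With more than 4 reads required in both libraries, 52 of the 61 remained. Over all hypomethylated DMPs of the data the medians were 20 reads in wt and 46 in βerko MEFs, and 5007 of 6016 were deeper in βerko MEFs. The part of depth in the Hoxd9 result was not tested. The other 11 Hoxd9 positions missed the DMP limits, 8 because wt was at 80 % or below and 3 because βerko was at 20 % or above.

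**Figure D3:**
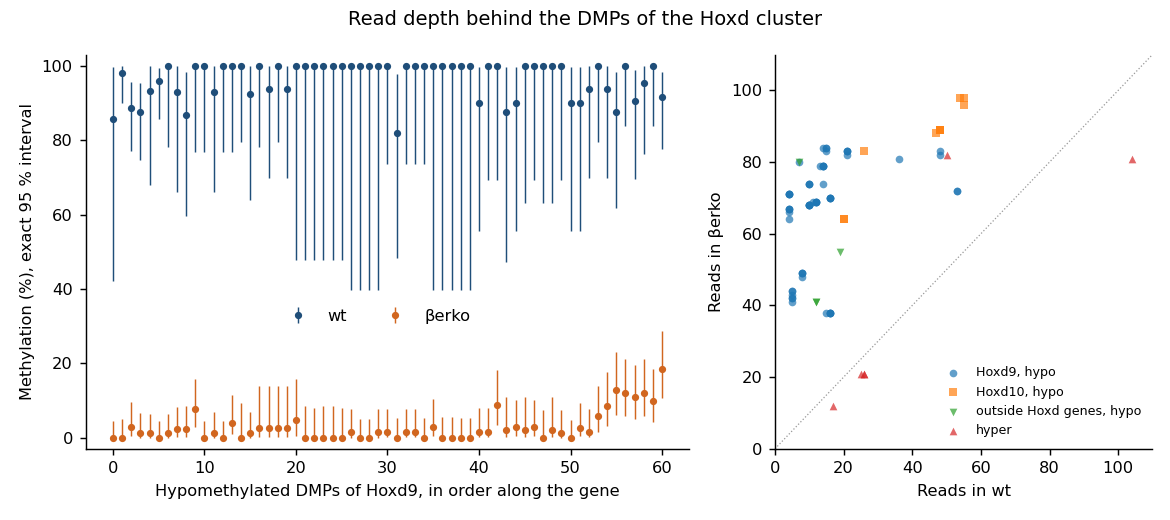
Left, methylation (%) with exact 95 % binomial intervals at the 61 hypomethylated DMPs of Hoxd9 in order along the gene, in wt and βerko MEFs. Right, reads at the 81 DMPs of the Hoxd interval in βerko against wt MEFs, with the line of equal depth dotted; the hypomethylated DMPs all lie above it, and 5 of the 6 hypermethylated DMPs lie below it.

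Hoxd10, the neighbour of Hoxd9 that takes part in limb and spinal motor neuron patterning, had a lower mean in βerko MEFs in both of its covered parts, which had different wt levels. The 23 untranslated positions at its 5′ end, from 74529147 on, averaged 25.6 % in wt and 0.13 % in βerko MEFs. The 21 positions of its intron averaged 94.5 % and 40.7 %, with wt values from 85 to 100 % and βerko values from 5.62 to 100 %. Over the gene the 44 positions averaged 58.5 % and 19.5 %, with 35 lower and none higher. The position at the annotated start had 24.1 % and 0.79 %, and the 3 runs of lower positions around and after it had means of 25.1 to 28.8 % in wt and of at most 0.51 % in βerko MEFs. The position with the largest difference, 74530917 in the intron, had 100 % and 7.81 % (20 and 64 reads).

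In the Hoxd10 intron the strands of single CpG sites disagreed in βerko MEFs. At 74530850 the plus-strand cytosine had 91.7 % in wt and 5.62 % in βerko MEFs (48 and 89 reads), and the facing minus-strand cytosine at 74530851 had 85 % and 90 %. At 74530898 and 74530899 the order was opposite, with 100 % on the plus strand and 15.6 % on the minus strand in βerko MEFs, and wt values of 94.7 % and 95 %. Of the 85 sites of the interval read on both strands, 67 were in the same class on both and none in opposite classes (lower on one and higher on the other). The median gap between strands was 7.59 percentage points in wt and 4.82 in βerko MEFs, and gaps over 50 occurred at 1 site in wt and 5 in βerko MEFs. The depth of the strands that kept high values is not listed, so how precise these gaps are is unknown. The 10 hypomethylated DMPs of Hoxd10, all in this intron, had 20 to 55 reads in wt and 64 to 98 in βerko MEFs.

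The block next to it on the Hoxd13 side, from Hoxd11 to the Hoxd10 start, was nearly free of methylation in βerko MEFs. Its 139 positions (74519719 to 74529969) averaged 12.1 % in wt, up to 54.8 %, and 0.30 % in βerko MEFs, with 118 at 0 % and none above 4.86 %. Within it, Hoxd11, a gene of forearm and kidney development, averaged 6.79 % and 0.35 % over 99 positions. Its promoter, defined as 500 bp before to 100 bp after any annotated start, had 1.96 % and 0.54 % (n = 52). The wt signal lay further into the gene, where a run of 5 positions in the coding exon had 38.1 % and 0.70 %, and position 74522101 had 54.8 % and 3.51 %. The 18 positions of non-coding exons at the 3′ side had 18.4 % and 0.12 %.

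Hoxd8, on the other side of Hoxd9, was nearly free of methylation in both libraries. Its 64 positions averaged 3.87 % in wt and 0.24 % in βerko MEFs, and 61 differed by less than 20 percentage points. The exceptions included 74543009 in the leader, with 64.1 % and 1.39 %, and the position nearest to a start had 7.14 % and 0 %. Upstream of the gene, within an intron of the non-coding gene 1700109F18Rik, 12 positions averaged 92.7 % and 54.1 %, and a run of 9 of them had 93.7 % and 48.7 %. Wt methylation was thus high at the covered positions from the Hoxd10 intron to just before Hoxd8. No position was covered between 74531026 and 74534851 or between 74538956 and 74542160, so a continuous region is not shown. Within this span the βerko values were on average lowest at Hoxd9, intermediate before Hoxd8, and high at the 2 positions between. In the Hoxd10 intron they ranged from 5.62 to 100 %. The 12 positions just after the first start of Hoxd3 had 1.38 % in wt and 0.33 % in βerko MEFs. None was covered in the 2 kb before that start.

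**Figure D4:**
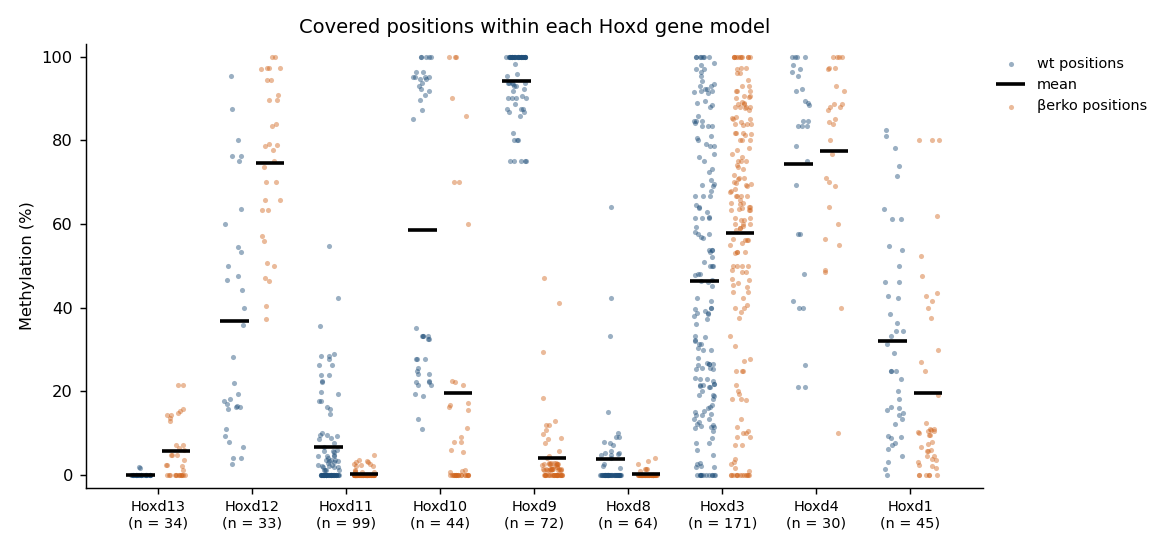
Methylation (%) of each covered position within the 9 Hoxd gene models, in their order along the chromosome, in wt and βerko MEFs, with the mean as a black bar and the number of positions (n) under each gene. The positions of Hoxd9 form separate groups in the libraries, those of Hoxd10 fall into a low and a high group in wt, and positions of Hoxd3 span the whole range in both.

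Hoxd12, a distal limb gene, differed in the opposite direction. Its 33 positions averaged 36.9 % in wt, from 2.74 to 95.2 %, and 74.6 % in βerko MEFs, from 37.3 to 100 %. Of these, 26 were higher by at least 20 percentage points and none was lower. Its promoter had 34.3 % and 87.1 % (n = 6). The covered position nearest to its start had 4 % and 46.4 %, and 74513126 in the leader had 28.3 % and 94.4 %. The smallest difference, at 74513586, was between 95.2 % and 100 %. Its 3 runs of higher positions, of 10, 8 and 6 positions, averaged 22.7 % and 81.9 %, 28.4 % and 68.6 %, and 11.7 % and 51.9 %. None of the 33 positions was a DMP, and their depth is unknown. At the positions in the runs this was because wt or βerko values were intermediate.

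Hoxd13, which patterns the digits, was free of methylation in wt, with 0.10 % over 34 positions and no value above 1.89 %. In βerko MEFs it averaged 5.80 %, up to 21.4 % at 74506516, with 11.9 % at the position nearest to its start. Upstream of the gene the βerko values were higher. The 3 positions from 74504908 to 74504930 had 2.35 to 5.95 % in wt and 37.1 to 64.0 % in βerko MEFs, and the 4 positions of the next stretch averaged 0.62 % and 35.0 %. The first of these was also the position just inside the interval, whereas the one just outside it, at 74499050, had 0 % and 4.08 %.

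Hoxd3 and Hoxd4, the anterior genes that pattern the neck vertebrae, share a locus, since the long model of Hoxd3 (74549986 to 74586331) spans Hoxd4, and the 30 positions of Hoxd4 count for both. Over 171 positions Hoxd3 averaged 46.3 % in wt and 57.8 % in βerko MEFs, with 63 higher, 20 lower and 88 within 20 percentage points. The increase was larger in its coding exon, at 42.9 % and 63.5 % (n = 44, 29 higher and 2 lower). Hoxd4 averaged 74.4 % and 77.3 %, with 5 higher, 4 lower and 21 within, and the sign of this small difference depended on the average used, the median difference being -0.16. At the annotated Hoxd4 start, position 74560035 had 41.7 % and 100 %. In its coding exon, 74565550 had 84.6 % and 49.1 %, and 74565654, on the other strand, had 21.1 % and 85 %.

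The 5 hypermethylated DMPs of Hoxd3 lay mostly in an intron before one of its starts. There, a run of 11 positions from 74574148 to 74574382, whose sequence is printed above, averaged 11.1 % in wt, with values from 0 to 23.1 %, and 71.4 % in βerko MEFs, from 42.4 to 100 %. Position 74574158 had 11.5 % (26 reads, exact 95 % interval 2.45 to 30.2 %) and 100 % (21 reads, 83.9 to 100 %). On the facing strand, 74574159 had 14.4 % of 104 reads and 81.5 % of 81 reads, so here both strands were higher. The other 4 runs of higher positions in Hoxd3, of 5 to 9 positions, averaged 21.8 to 39.6 % in wt and 51.1 to 71.0 % in βerko MEFs. Other parts of Hoxd3 were lower in βerko MEFs: a stretch of 16 positions averaged 33.7 % and 13.3 %, with 8 lower and none higher, and the largest fall within the gene, at 74584507 in the coding exon, was from 84.6 % to 27.8 %. The position nearest to a Hoxd3 start had 31.3 % and 48.7 %. The remaining hypermethylated DMP, at 74587544 in the non-coding gene 6720416L17Rik, had 14 % and 81.7 %, while the 59 positions of that gene averaged 41.7 % and 41.8 %.

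Hoxd1, at the anterior end and a gene of sensory neurons, had a lower mean in βerko MEFs. Its 45 positions averaged 32.1 % in wt and 19.6 % in βerko MEFs, with 19 lower, 4 higher and 22 within 20 percentage points. The coding exon had 34.5 % and 14.6 % (n = 41), and a run of 8 positions in it 51.6 % and 16.1 %, with 78.1 % and 7.55 % at 74601375. The position nearest to the start had 7.5 % and 2.63 %. The 4 intron positions were the higher ones, with 7.28 % and 70 %. The last position inside the interval was among them (74601882, 7.14 % and 80 %), and the next covered position outside, at 74628153, had 55.7 % and 78 %. The promoter of Hoxd1 had 12.0 % and 2.41 % (n = 21).

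Across the 9 promoters the means were lower by at least 20 percentage points at Hoxd9 (90.8 % and 1.24 %, n = 4) and Hoxd10 (26.8 % and 0.51 %, n = 9), and higher by as much at Hoxd12, Hoxd4 (65.4 % and 94.5 %, n = 5) and Hoxd3 (24.8 % and 46.2 %, n = 44). With either of the wider promoter windows tried, the differences were 9.08 or 5.56 at Hoxd4 and 11.2 or 14.6 at Hoxd3, under that limit. The promoters of Hoxd8, Hoxd1, Hoxd11 and Hoxd13 were within it. The Hoxd8 promoter means were 30.2 % and 15.1 % (n = 41), since its window took in the methylated positions upstream of the gene. The Hoxd3 means join the windows of 7 annotated transcript starts and do not describe a single promoter. Just after the first of these starts, the 12 covered positions averaged 1.38 % and 0.33 %. Promoters with under 10 positions rest on few covered sites. No share over all promoters of the genome is given to set beside these counts, so whether they are unusual is unknown.

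Oestrogen receptors bind a palindrome of the half-site AGGTCA, the oestrogen response element. Searched on both strands, the half-site was found within 100 bases of 76 of the 604 covered Hoxd CpG sites (12.6 %), and of 8.49 % of the 756270 covered sites of the genome. No match lay within 100 bases of the covered sites of the Hoxd9 runs. The palindrome in the form GGTCANNNTGACC, which reads the same on both strands and shares letters with the half-site, was near none of the Hoxd sites and near 0.0206 % of all sites. A match is a description of letters, not of binding.

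The other Hox clusters hold paralogues of the Hoxd genes. Lower positions made up 30.4 % of the 674 positions from the first to the last base of the Hoxd genes, 19.8 % of 673 in Hoxa, 22.2 % of 654 in Hoxb and 19.7 % of 517 in Hoxc. In Hoxd these were 205 positions, of which 72 lay in Hoxd9. Higher positions made up 16.5 % in Hoxd, 26 % in Hoxa, 17.1 % in Hoxb and 12.8 % in Hoxc. Over all covered positions, 10.4 % were lower and 6.81 % higher. Hypomethylated DMPs numbered 75 in Hoxd (11.1 %), 52 in Hoxa (7.73 %), 3 in Hoxb (0.46 %) and 3 in Hoxc (0.58 %). Their share of all covered positions was 0.728 %. Positions above 80 % in wt, which alone can be hypomethylated DMPs, numbered 157, 166, 51 and 47 in this order. Hypermethylated DMPs numbered 6 (0.89 %), 9 (1.34 %), 8 (1.22 %) and 2 (0.39 %), against 0.249 % of all covered positions. Of the paralogues of Hoxd9, Hoxa9 had 0.6 % in wt and 29.9 % in βerko MEFs, Hoxb9 19.9 % and 14.6 %, and Hoxc9 31.8 % and 29.7 %, so none shared its pattern. Of the 29 covered genes among the 30 other Hox genes, 4 had a mean lower by 20 percentage points or more and 3 a mean higher by as much, against 2 and 1 of the 9 Hoxd genes. The 4 were Hoxa3, Hoxa4, Hoxa5 and Hoxa6, and the 3 were Hoxa9, Hoxa10 and Hoxa11, so none lay in Hoxb or Hoxc. Of all genes with at least 5 positions, 3.57 % were lower and 0.82 % higher by this limit. Evx2, which lies beyond Hoxd13, had 2.6 % and 11.2 %.

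**Figure D5:**
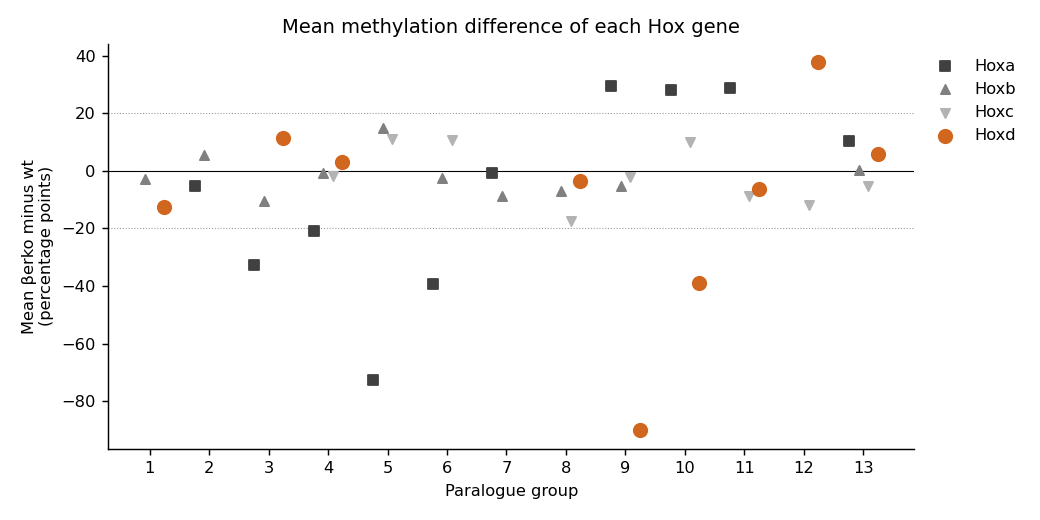
Mean difference in methylation, βerko minus wt, in percentage points, of each covered Hox gene against its paralogue group, with 1 symbol per cluster. Dotted lines mark 20 percentage points; Hoxd9 lies lowest at -90.2, followed by Hoxa5 at -72.5, and Hoxd12 lies highest at 37.6.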

How the data were processed

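DNA of wt and βerko MEFs was measured by RRBS, 1 library per group. The authors mapped the reads to mm9 with the Genomatix mining station (the submitters' processing notes also name CASAVA 1.4) and deposited a table of percent methylation for each cytosine covered in both libraries. In 2 further tables the authors deposited read counts at DMPs only. Each DMP had at least 4 reads in both libraries, as the values show.

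All covered positions were CpG cytosines in the NCBIM37 (mm9) sequence. Genes were taken from GENCODE vM1 on that build. Percentages were averaged over positions without weights, because depth is unknown at most of them. A position, gene or promoter was called lower or higher at a difference of 20 percentage points. Exact binomial intervals (95 %) were computed where counts were listed. The search for runs was tested on simulated data whose planted runs were clear of the 20 percentage point limit. This checks the code, not how the search behaves on noisy percentages. Python 3.11.15, pandas 2.3.3, SciPy 1.17.1 and matplotlib 3.10.9 were used.

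The members, the lists and the block borders were chosen with earlier results of these data known. Named were the 9 Hoxd genes, genes overlapping the interval, the other Hox genes with Evx1 and Evx2, the runs, in each gene the positions nearest to the start and with the largest fall and rise, the positions at the edges, and the 5 genes of at least 20 positions whose pair of means was nearest to that of Hoxd9. Strand pairs, single stretches and further positions were picked after their values were seen. Alternative thresholds, weights, promoter windows, run definitions and depths were tried.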

Additional observations from a re-analysis of the deposited data

How the results depend on the processing

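No paired analysis was possible because each group had 1 library and no result came from a test. With DMP limits of 10 and 90 % the hypermethylated DMPs of the Hoxd interval numbered 0, and with 30 and 70 % 19. Requiring differences of 50 or 10 percentage points gave 14.9 % or 37.6 % of positions lower and 5.37 % or 22.5 % higher, and 50 percentage points gave 7.54 % lower in the other Hox clusters in place of 20.6 %. The mean difference over the interval was -7.27 percentage points with 100 bp bins weighted equally, -4.61 with 1 kb bins, and -1.79 as the median over positions. The cause was not tested. The number of promoters higher in βerko MEFs was 1 in place of 3 with either wider window, Hoxd3 and Hoxd4 dropping below the limit. Runs of lower positions numbered 17 in place of 10 when 3 positions sufficed. Hypomethylated DMPs with at least 20 reads in both libraries numbered 19, against 66 with more than 4. The Hoxd4 gene difference turned to -0.16 percentage points as a median. Depth outside the DMPs is unknown, which limits every other single position.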

Other observations

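Among the 10049 genes with at least 20 covered positions, those whose pair of means was nearest to that of Hoxd9 were Slc25a43 (76.6 % in wt and 6.59 % in βerko MEFs, 23 positions), the long non-coding gene 9630013D21Rik (76.3 % and 6.00 %, 28 positions), 1700016H13Rik (82.9 % and 19.1 %, 21 positions), Hoxa5 (95.3 % and 22.8 %, 39 positions) and Tmem30b (83.5 % and 22.5 %, 51 positions). The measure was the Euclidean distance between the pairs of means, from 17.8 for Slc25a43 to 21.4 percentage points for Tmem30b. Hoxa5 was the only Hox gene among these 5. Evx1, the homeobox gene next to the Hoxa cluster, had 76.6 % and 33.0 %. Gm20440, a gene model that overlaps Hoxd10, had 41.9 % and 10.3 % over 84 positions, and the gene model Gm14424 had 43.9 % and 58.9 % over 26. Of the non-coding gene 1700109F18Rik, 88 positions averaged 15.6 % and 7.59 %. Mir10b and Gm14426 held 0 covered positions.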
